A study of Mus musculus with 27 samples.

Results

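The change in gene expression between 6 h and 12 h of rosiglitazone was followed in mature adipocytes of the 3T3-L1 line, mouse preadipocytes that become fat cells in a dish when given hormones. The comparison sets the 3 arrays of cells exposed for 12 h against the 3 arrays of cells exposed for 6 h, so it uses 6 of the 27 arrays of the time course and covers all 18781 genes that could be measured. The groups of the time course are untreated 3T3-L1 adipocytes at time 0 and cells given 1 µM rosiglitazone, dissolved in DMSO, for 30 min, 1 h, 2 h, 6 h, 12 h, 24 h, 36 h or 48 h, each with 3 arrays. All cells were the same line, differentiated with dexamethasone, insulin and 3-isobutyl-1-methylxanthine before the drug was given. No arrays of cells given DMSO alone for 6 h or 12 h were analysed here, so the effect of the drug and that of the added hours in culture cannot be told apart. The labels do not say whether replicates were separate cultures. The p-values set each change against how far arrays of the same group differ, pooled over the groups of the time course, and that spread may be technical.

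Rosiglitazone, a thiazolidinedione once widely used against diabetes, is a ligand of PPARγ, a nuclear receptor on which fat cell formation depends. Adipocytes also secrete acute-phase proteins, keep an actin cytoskeleton that is taken down as they round up, and run a circadian clock in culture. In that clock the activators CLOCK and BMAL1 (gene Arntl) bind E-boxes and drive their own repressors, the PER and CRY proteins, while REV-ERB and NFIL3 act on further elements. Ribosome biogenesis, the making of ribosomal RNA and its assembly in the nucleolus, is a large part of the growth programme of a cell.

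Values below are log2 intensities per gene, changes are differences of log2 group means at 12 h minus 6 h ± SE, and adjusted p-values are from limma with Benjamini-Hochberg adjustment over the 18781 genes. A gene rose or fell where its adjusted p was below 0.05. The 6 arrays had medians between 4.02 and 4.09, and the number of arrays limits the precision: the median SE was 0.0877 on the log2 scale. All 11 adipocyte markers lay above the median gene and averaged 11.49 to 11.60 per array at 6 h and 11.50 to 11.54 at 12 h. None of 8 endothelial or 5 T or B cell markers and 1 of 10 macrophage markers lay above the median gene, while 6 of 9 fibroblast and 5 of 8 smooth muscle markers did. In a bulk sample, fewer cells of a type and less RNA per cell cannot be told apart.

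Between 6 h and 12 h a small number of genes changed, and by modest amounts. Genes for acute-phase proteins, contractile proteins, ribosome assembly and the core clock were among those that fell. Hypoxia-responsive genes, the brown fat elongase Elovl3 and several stress-inducible regulators were among those that rose. The lipid-handling targets of PPARγ and the defining genes of the adipocyte held no called gene. Of all genes tested, 220 were called (1.17%), of which 106 rose (0.564%) and 114 fell (0.607%), so that 48.2% of the calls were higher. Centring each array on its median gave 215 calls, 28.4% of them higher. The median change of called genes was 0.374 in size, 23 of them changed by 1.5-fold or more and 2 by 2-fold or more. By comparison 1720 genes (9.16%) were called from 2 h to 6 h and 550 (2.93%) from 12 h to 24 h. In all 220 called genes the 3 arrays of one time lay beyond the 3 of the other, which held for 3143 genes overall (16.7%). Of all 18781 genes, 51.3% had a change above 0 and 2370 had an unadjusted limma p below 0.05. These are the baselines for the counts of list members below.

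**Figure D1:**
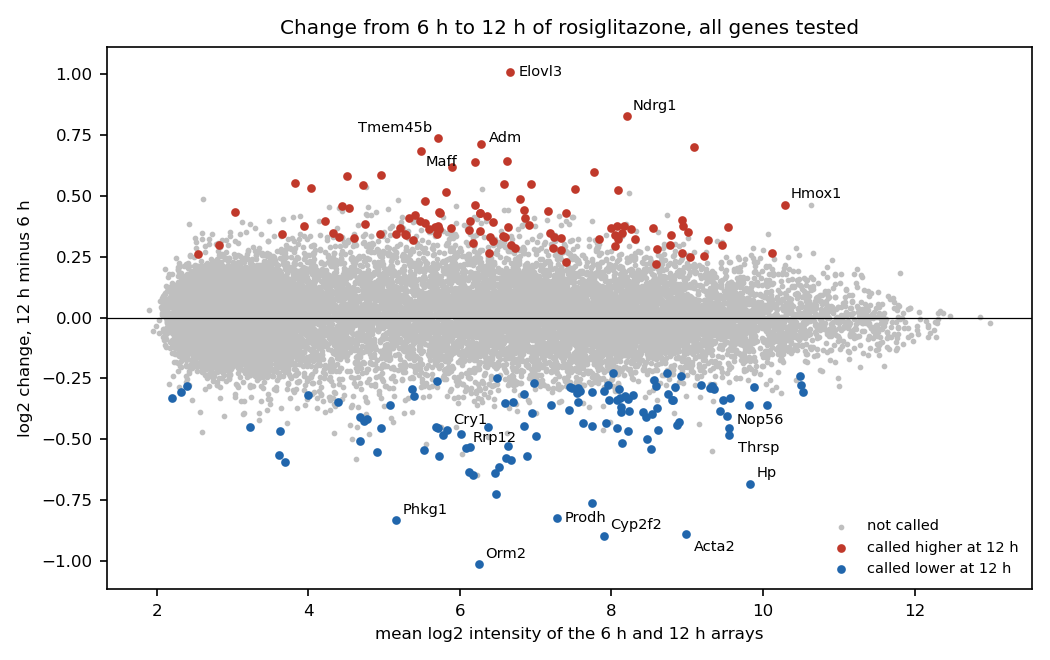
Each point is a gene, with the mean log2 intensity of the 6 h and 12 h arrays on the x axis and the log2 change from 6 h to 12 h on the y axis. Red points are the 106 genes called higher and blue points the 114 called lower, and the named genes span changes from -1.01 for Orm2 to 1.01 for Elovl3.

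These calls rest on 3 arrays per time, and many did not survive the loss of 1. Without replicate 1 or 2 of the 6 h group the count was 57 and 54, without replicate 3 of that group it was 153, and without replicate 1, 2 or 3 of the 12 h group it was 162, 132 and 90. No called gene changed sign in any of these models, and 32 genes kept their call in all 6 of them. Those 32 include Cyp2f2, Hp, Orm2, Acta2, Phkg1, Prodh, Slc22a4, Acsl5, Gbgt1, Mustn1, Tmem176a, Acox3, Hsph1, Ddx21 and Polr1a among the genes that fell, and Ndrg1, Tmem45b, Maff and Slc25a26 among those that rose. Where a call described below was lost without an array, the adjusted p without it is given.

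Acute-phase proteins are secreted into plasma during inflammation, and adipocytes make several of them. Of 25 measured acute-phase and complement genes, 3 fell (Orm2, Hp and Itih4) and 0 rose, beside 0.607% and 0.564% of all genes. On this list 19 lay below 0, with a median change of -0.09 beside 0.00345 over all genes. Orm2 encodes orosomucoid, a plasma lipid- and drug-binding glycoprotein. Its log2 level was 6.71, 6.77 and 6.80 in the 6 h arrays and 5.89, 6.04 and 5.30 in the 12 h arrays. The groups were separated, and the third array at 12 h was the lowest. The change was -1.01 ± 0.175 (n = 3 per group, limma adjusted p = 0.00434), a 2.02-fold fall. Hp encodes haptoglobin, which captures free haemoglobin. Its level was 10.20, 10.17 and 10.15 at 6 h and 9.51, 9.59 and 9.38 at 12 h, a change of -0.68 ± 0.088 (limma adjusted p = 0.000292). All 12 h arrays lay well below all 6 h arrays. The falls began late: from 2 h to 6 h Hp differed by -0.13 and Orm2 by -0.20, neither called, whereas from 12 h to 24 h, when 1.66% of all genes were called lower, they fell by 1.05 and 1.22. Itih4, an acute-phase serum protein, fell by 0.50 ± 0.124 (limma adjusted p = 0.0457), a call lost without any one of the 6 arrays, with adjusted p from 0.0567 to 0.188. Lcn2, the secreted lipocalin, lay at 6.17, 5.98 and 5.78 at 6 h and 5.55, 5.28 and 5.75 at 12 h and was not called (-0.45 ± 0.15, limma adjusted p = 0.141).

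Acta2 and Flna fell among the actin and contractile genes. Of 27 on that list, 2 fell and 0 rose, beside 0.607% and 0.564% of all genes. Of the 27, 25 were not called and 21 lay below 0, with a median of -0.07. From 2 h to 6 h, which shares the 6 h arrays, 14 of the 27 had been called lower and 0 higher (4.89% and 4.27% of all genes), with a median of -0.28. Acta2, smooth muscle actin, was measured at 9.39, 9.50 and 9.39 at 6 h and at 8.38, 8.90 and 8.34 at 12 h. All 3 arrays at 12 h were lower, with replicate 2 the highest of them, and the change was -0.89 ± 0.122 (limma adjusted p = 0.000399). Its group mean had been 10.07 in untreated cells and reached 7.48 at 24 h. Flna, the actin cross-linker filamin A, went from 9.05, 9.14 and 9.08 to 8.64, 8.76 and 8.54 (-0.44 ± 0.085, limma adjusted p = 0.00819). This call was lost without the 6 h replicate 2 (adjusted p = 0.0606) or the 12 h replicate 3 (0.0641). Mustn1, a small nuclear protein of muscle and skeleton, went from 8.20, 8.23 and 7.95 to 7.47, 7.26 and 7.36 (-0.76 ± 0.122, limma adjusted p = 0.00218). The 8 smooth muscle and myofibroblast markers, Acta2 among them, averaged 5.56 to 5.71 per array at 6 h and 5.27 to 5.46 at 12 h, with 1 called lower. The part of such cells in these changes was not tested.

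Several enzymes and transporters fell and kept their calls without any single array. Cyp2f2, a cytochrome P450 best known from lung airway cells, went from 8.31, 8.47 and 8.27 to 7.49, 7.49 and 7.39. Its change of -0.90 ± 0.093 had the smallest p of the comparison (limma adjusted p = 1.48e-05) and was the single call under a minimum change of 1.2-fold. Cyp2f2 had already fallen by 0.75 from 2 h to 6 h, when 4.89% of all genes were called lower, and from 12 h to 24 h it differed by only -0.15, not called. Phkg1, the catalytic subunit of the phosphorylase kinase that starts glycogen breakdown, went from 5.37, 5.73 and 5.62 to 4.66, 4.70 and 4.86 (-0.83 ± 0.120, limma adjusted p = 0.00071). Prodh, the mitochondrial enzyme that begins proline breakdown, went from 7.78, 7.84 and 7.44 to 6.86, 6.86 and 6.88 (-0.82 ± 0.123, limma adjusted p = 0.000978). In both genes the arrays of the 2 times were separated by more than the spread within either. Slc22a4, the ergothioneine transporter, fell by 0.72 ± 0.100, and Acsl5, a long-chain acyl-CoA synthetase, fell by 0.64 ± 0.088 (both limma adjusted p = 0.000399). Acox3, a peroxisomal acyl-CoA oxidase for branched chains, fell from 8.81, 8.85 and 8.69 to 8.26, 8.18 and 8.30 (-0.54 ± 0.063, limma adjusted p = 6.65e-05). It was the only one of 17 peroxisomal lipid enzymes called, and 12 of those 17 lay above 0.

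Detoxification genes did not move one way. Of 27 NRF2 and antioxidant genes, 1 rose and 1 fell, beside 0.564% and 0.607% of all genes, with a median of -0.02. Nqo1, a quinone reductase, went from 7.06, 6.94 and 6.89 to 6.23, 6.54 and 6.38 (-0.58 ± 0.112, limma adjusted p = 0.0078), a call lost without the 6 h replicate 1 (adjusted p = 0.0644). Hmox1, haem oxygenase 1, went from 10.24, 10.06 and 9.85 to 10.51, 10.37 and 10.66 (0.46 ± 0.088, limma adjusted p = 0.00759). Its groups did not overlap, and its call was lost without the 6 h replicate 3 (0.0545) or the 12 h replicate 3 (0.0657). Gstt1, a glutathione transferase, fell by 0.61 ± 0.115 (limma adjusted p = 0.00713), which was lost without the 6 h replicate 2 (0.0643).

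**Figure D2:**
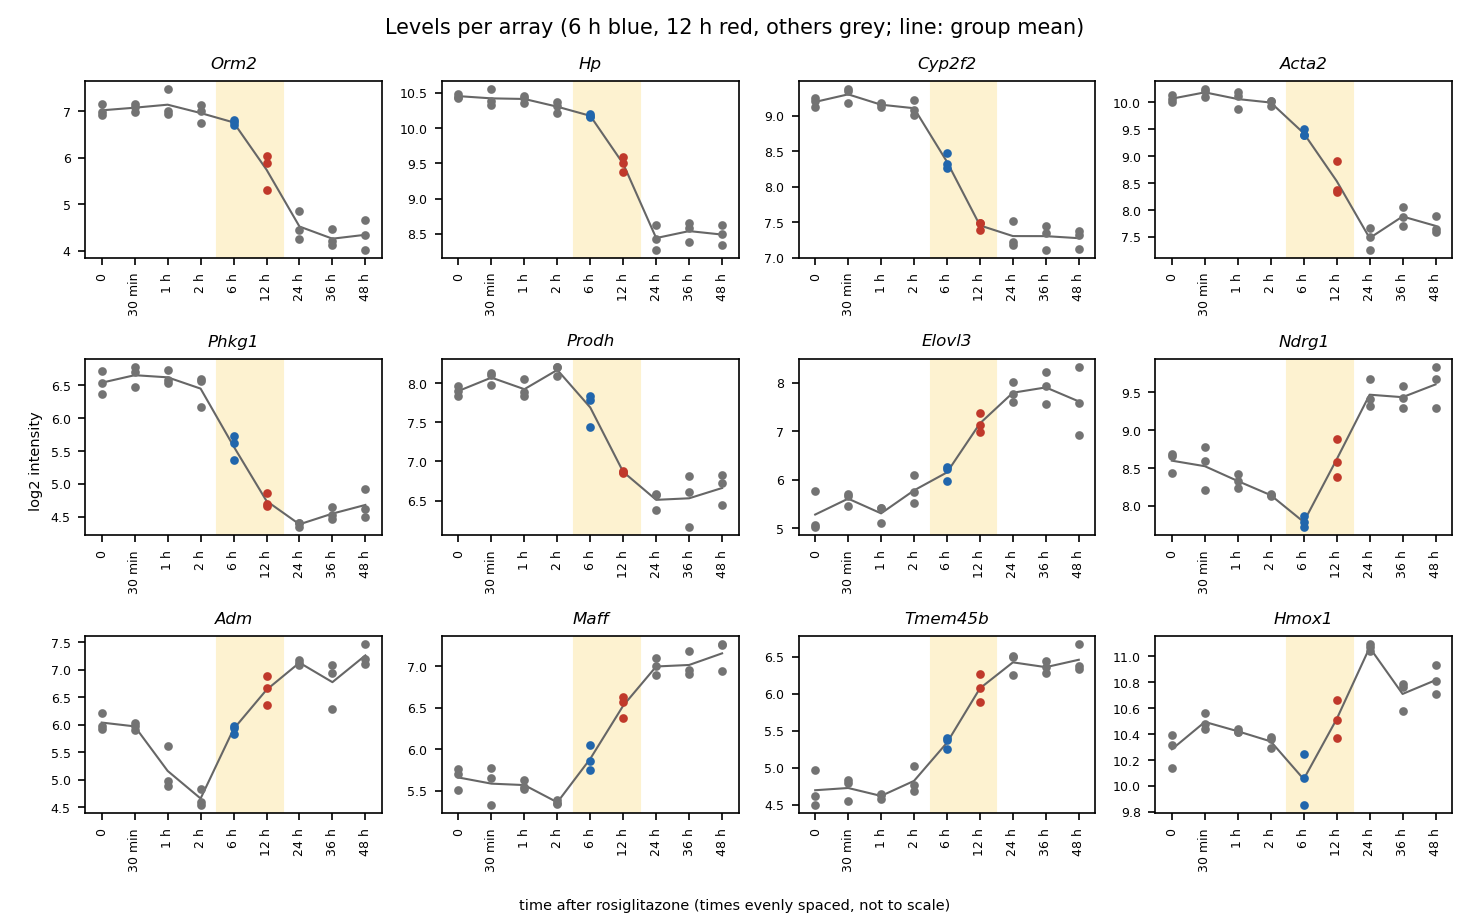
Log2 intensity per array (points, 3 per time) and group mean (line) for 12 genes across the time course, with the times evenly spaced and the 6 h to 12 h interval shaded. Cyp2f2 was near its lowest by 12 h, Orm2 and Hp fell further to 24 h, and Ndrg1 and Hmox1 were lowest at 6 h.

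Hypoxia-responsive genes, which hypoxia-inducible factors switch on when oxygen is low, lay mostly above 0. Of 26 measured, 2 rose (Ndrg1 and Adm) and 0 fell, beside 0.564% and 0.607% of all genes. Of the 26, 25 lay above 0, beside 51.3% of all genes. Their median change was 0.15 beside 0.00345 over all genes. The groups did not overlap in 9 of the 26, all with 12 h above, compared with 8.63% of all genes. Ndrg1, a stress- and hypoxia-inducible cytoplasmic protein, was 7.78, 7.72 and 7.87 at 6 h and 8.58, 8.38 and 8.88 at 12 h. This rise of 0.83 ± 0.137 (limma adjusted p = 0.003) followed a group mean that had gone from 8.60 in untreated cells to 7.79 at 6 h, and it went on by 0.86 to 24 h, with 1.27% of all genes called higher from 12 h to 24 h. Adm, the vasodilator peptide adrenomedullin, was 5.99, 5.94 and 5.84 at 6 h and 6.35, 6.67 and 6.88 at 12 h (0.71 ± 0.170, limma adjusted p = 0.0359). The Adm call was lost without any 6 h replicate (adjusted p = 0.0966, 0.106 and 0.104 for replicates 1 to 3) and without the 12 h replicate 2 (0.105) or 3 (0.179). From 2 h to 24 h, which uses none of the 6 arrays, 21 of the 26 genes were called higher and 1 lower, beside 9.68% and 10.6% of all genes.

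Among glycolysis and glycogen genes 3 of 28 rose and 0 fell, beside 0.564% and 0.607% of all genes. Of the 28, 23 lay above 0, beside 51.3% of all genes, with a median of 0.08. Pfkm, the muscle-type phosphofructokinase, went from 8.39, 8.50 and 8.50 to 8.75, 8.77 and 8.72 (0.28 ± 0.057, limma adjusted p = 0.0112). All 3 arrays at 12 h were higher, and the call was lost without the 6 h replicate 1 (adjusted p = 0.089). Slc16a3, a lactate exporter, rose by 0.43 ± 0.092 (limma adjusted p = 0.018), lost without the 6 h replicate 3 (0.102) or the 12 h replicate 3 (0.13). Ldhb, a lactate dehydrogenase subunit, rose by 0.25 ± 0.061 (limma adjusted p = 0.0435). That call was lost without the 6 h replicate 1 (0.17) or 2 (0.152) or any 12 h replicate (0.063, 0.144 and 0.114).

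Genes of thermogenic fat showed a narrow change. Of 28 brown and beige fat genes 2 rose and 0 fell, beside 0.564% and 0.607% of all genes. On the list 14 lay above 0, beside 51.3% of all genes. Elovl3, an elongase of very long-chain fatty acids typical of brown fat, was 5.97, 6.27 and 6.23 at 6 h and 7.00, 7.12 and 7.38 at 12 h. The change of 1.01 ± 0.239 (2.01-fold, limma adjusted p = 0.034) was the highest of the comparison. The groups lay far apart, yet the call was lost without any one of the 6 arrays, with adjusted p from 0.0516 to 0.151 and changes from 0.90 to 1.09. Cox7a1, a heart- and brown-fat-type cytochrome oxidase subunit, went from 8.87, 8.80 and 8.84 to 8.97, 9.33 and 9.28 (0.35 ± 0.089, limma adjusted p = 0.0489). It kept its call only without the 12 h replicate 1, and without the others the adjusted p lay between 0.102 (6 h replicate 3) and 0.211 (12 h replicate 2), with 0.114 and 0.161 without 6 h replicates 1 and 2 and 0.189 without the 12 h replicate 3. Ucp1, the uncoupling protein of brown fat, stayed near the bottom of the scale, at 2.98, 2.81 and 2.84 and at 2.66, 2.85 and 2.60. Cidea, a lipid droplet protein of brown fat, was not called here (0.20 ± 0.12, limma adjusted p = 0.532) and was called higher by 1.10 from 12 h to 24 h. Chchd10, a small mitochondrial protein, rose by 0.55 ± 0.129 (limma adjusted p = 0.0331) and kept that call only without the 12 h replicate 1. Without 6 h replicates 1, 2 and 3 its adjusted p was 0.119, 0.0852 and 0.086, and without 12 h replicates 2 and 3 it was 0.0661 and 0.17.

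Of 27 immediate early genes, transcription factors and regulators that stress and growth signals induce quickly, 3 rose and 0 fell. Over all genes 0.564% rose and 0.607% fell. The list lay below its untreated level at both times. At 6 h, 16 of the 27 were called lower than untreated and 0 higher (8.18% and 8.39% of all genes), with a median of -0.38. At 12 h, 14 were called lower and 1 higher (9.38% and 9.48% of all genes), with a median of -0.33. Maff, a small MAF transcription factor, was 6.05, 5.74 and 5.86 at 6 h and 6.37, 6.63 and 6.57 at 12 h. It rose by 0.64 ± 0.109 (limma adjusted p = 0.00398) with no overlap of the groups. Jund, an AP-1 subunit, rose by 0.41 ± 0.091 (limma adjusted p = 0.0223), lost without 6 h replicates 1, 2 or 3 (adjusted p = 0.0598, 0.0743 and 0.0998) or the 12 h replicate 3 (0.156). Atf3, a stress-induced repressor, rose by 0.49 ± 0.123 (limma adjusted p = 0.0499) and kept its call only without the 12 h replicate 2. Without 6 h replicates 1, 2 and 3 its adjusted p was 0.0788, 0.201 and 0.11, and without 12 h replicates 1 and 3 it was 0.0599 and 0.274. Tmem45b, a transmembrane protein, went from 5.25, 5.40 and 5.37 to 5.88, 6.26 and 6.08, a rise of 0.74 ± 0.117 (limma adjusted p = 0.00215). Bach2, a repressor that pairs with small MAF proteins, rose by 0.58 ± 0.114 (limma adjusted p = 0.00889), lost without the 6 h replicate 2 (0.0643) or the 12 h replicate 3 (0.0781).

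Ribosome biogenesis was the list with the most called genes. Of 40 measured genes for ribosomal RNA transcription, processing and assembly, 12 fell and 0 rose, beside 0.607% of all genes called lower. All 40 lay below 0, between -0.54 and -0.05, with a median of -0.25. In 30 of the 40 the 12 h arrays lay below all 6 h arrays, beside 8.11% of all genes. The count of calls was 2 without the 6 h replicate 1 or 2, 11 without the 6 h replicate 3, 10 and 9 without 12 h replicates 1 and 2, and 4 without the 12 h replicate 3, while the median stayed between -0.28 and -0.21. With only the 6 arrays in the model 1 gene of the list was called. Against untreated cells, 25 of the 40 were called higher and 0 lower at 6 h (8.39% and 8.18% of all genes), with a median of 0.30. At 12 h, 8 were still called higher than untreated and 0 lower (9.48% and 9.38% of all genes), with a median of 0.05. The fall thus started from a level raised at 6 h and ended near the untreated level.

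**Figure D3:**
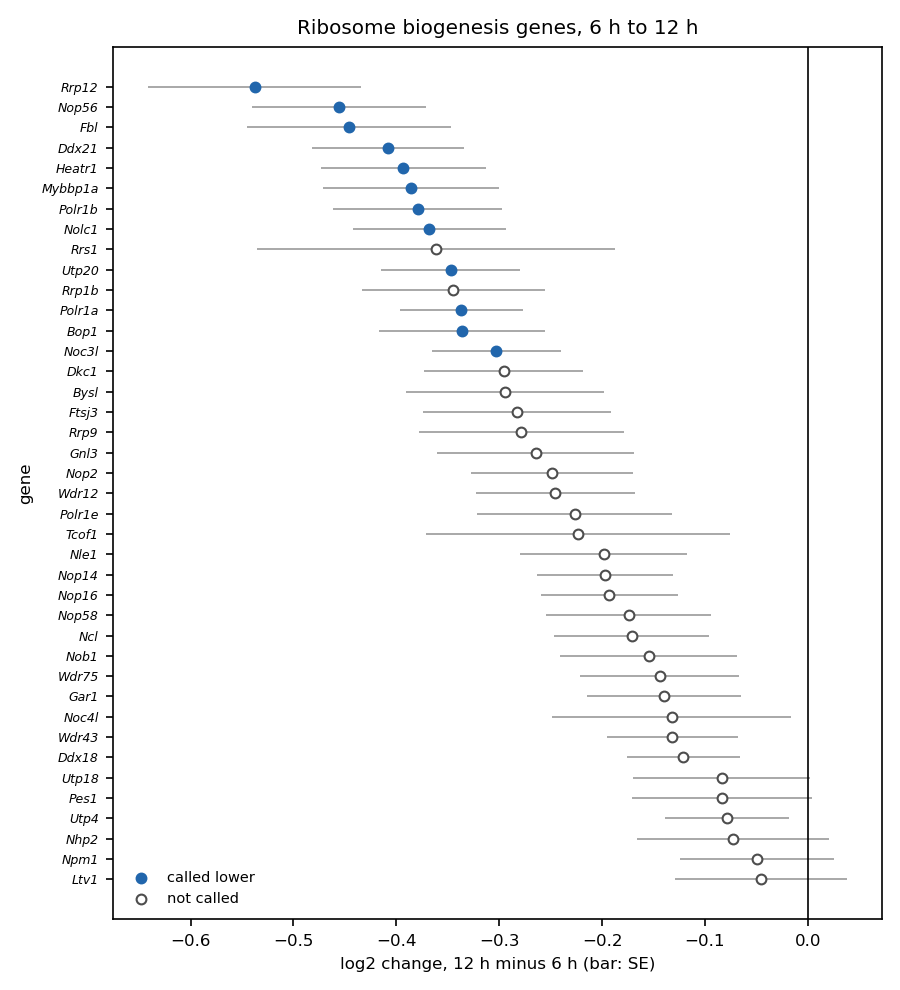
Log2 change from 6 h to 12 h (x axis) of the 40 ribosome biogenesis genes (y axis), with bars of 1 SE. Filled points are the 12 genes called lower, open points were not called, and all 40 lie left of 0.

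Rrp12 serves the export and maturation of ribosomal subunits. It was 6.48, 6.44 and 6.15 at 6 h and 5.79, 5.84 and 5.83 at 12 h, a change of -0.54 ± 0.104 (limma adjusted p = 0.00828). The 6 h replicate 3 lay closest to the 12 h arrays, and the call was lost without the 6 h replicate 1 (adjusted p = 0.0733) or 2 (0.0646). Nop56, a core protein of the particles that methylate ribosomal RNA, went from 9.84, 9.85 and 9.63 to 9.46, 9.35 and 9.14 (-0.46 ± 0.085, limma adjusted p = 0.00704). Its call was lost without the 6 h replicate 1 (0.0559) or 2 (0.0578) or the 12 h replicate 3 (0.0589). Ddx21, a nucleolar RNA helicase, went from 8.69, 8.71 and 8.59 to 8.34, 8.34 and 8.08 (-0.41 ± 0.074, limma adjusted p = 0.00662). Polr1a, the largest subunit of RNA polymerase I, went from 8.16, 8.17 and 8.08 to 7.87, 7.77 and 7.76 (-0.34 ± 0.060, limma adjusted p = 0.0058). The last pair kept their calls without any single array.

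The proteins of the finished ribosome gave other values. Of 28 cytosolic ribosomal protein genes limma called 0, and 0 had an unadjusted p below 0.05. Their median change was 0.01, and 15 lay above 0. Of 33 mitochondrial ribosome genes 1 rose (Mrpl13, 0.34 ± 0.076, limma adjusted p = 0.0225) and 28 lay above 0. Mrpl13 lost its call without 6 h replicates 1 or 2 (adjusted p = 0.112 each) or 12 h replicates 2 (0.117) or 3 (0.0544). In the time course the ribosome biogenesis list had 7 genes called higher and 0 lower from 2 h to 6 h (4.27% and 4.89% of all genes), a comparison that shares the 6 h arrays. From 2 h to 24 h, in arrays not used here, 27 of the 40 fell and 0 rose, beside 10.6% and 9.68% of all genes. Hsph1, a heat shock chaperone, rose and fell over the same times: it rose by 0.69 from 2 h to 6 h and then fell by 0.43 ± 0.073 (limma adjusted p = 0.0037), from 8.18, 8.20 and 8.05 to 7.80, 7.78 and 7.55. It was the only one of 17 heat shock chaperones called.

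Core clock genes were measured for 17 members, of which 3 fell (Cry1, Nfil3 and Arntl) and 0 rose, beside 0.607% and 0.564% of all genes. The groups did not overlap in 11 of the 17, 6 of them with 12 h above and 5 with 12 h below, beside 16.7%, 8.63% and 8.11% of all genes, and the list's median was 0.06. Cry1, a repressor of the clock, was 6.16, 6.17 and 5.84 at 6 h and 5.53, 5.57 and 5.69 at 12 h. The groups did not overlap, and the change was -0.46 ± 0.086 (limma adjusted p = 0.00675), lost without the 6 h replicate 1 (0.0598) or 2 (0.0614). Nfil3, a repressor of D-box genes, was 7.14, 7.05 and 7.00 at 6 h and 6.73, 6.43 and 6.70 at 12 h (-0.45 ± 0.081, limma adjusted p = 0.00666), lost without the 6 h replicate 1 (0.0538). Nfil3 had risen by 0.74 from 2 h to 6 h. Arntl, which encodes the activator BMAL1, was 6.80, 6.84 and 6.68 at 6 h and 6.53, 6.38 and 6.36 at 12 h (-0.35 ± 0.078, limma adjusted p = 0.0235). That call was lost without the 6 h replicates 1 (0.102) or 2 (0.122) and the 12 h replicates 2 (0.0918) or 3 (0.114). By limma 0 clock genes were called without the 6 h replicate 1, and 1 was called without the 6 h replicate 2. Without the 6 h replicate 1, 8 clock genes had an unadjusted p below 0.05, beside 1843 of all genes.

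Other clock genes did not pass the test. Per2, a repressor, was 6.34, 6.36 and 6.18 at 6 h and 6.04, 5.84 and 6.13 at 12 h (-0.29 ± 0.09, limma adjusted p = 0.141). Nr1d2, which encodes REV-ERBβ, was 6.81, 6.79 and 6.82 at 6 h and 7.05, 7.10 and 7.40 at 12 h (0.38 ± 0.12, limma adjusted p = 0.147). Both had separated groups, below 6 h for Per2 and above it for Nr1d2. Per1, Per3 and Clock overlapped between the times, with changes of 0.05, 0.08 and -0.03. From 24 h to 36 h, in arrays the comparison does not use, 29 genes were called (0.154%), with Per2 (-0.48, limma adjusted p = 0.0253) and Per3 (-0.52, limma adjusted p = 0.0252) among the 19 that fell (0.101%), while 10 rose (0.0532%). Cry1, Nfil3 and Arntl, which fell from 6 h to 12 h, were not called from 24 h to 36 h, with changes of -0.11, 0.11 and 0.33. The count for 24 h to 36 h was 1365 with array weights, and 0, 1 and 10 in limma models without replicates 1, 2 and 3 of every group, with 1528 genes at an unadjusted p below 0.05 in the first. Without 24 h replicates 1, 2 and 3 it was 6, 17 and 10, and without the 36 h replicate 1 it was 11.

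**Figure D4:**
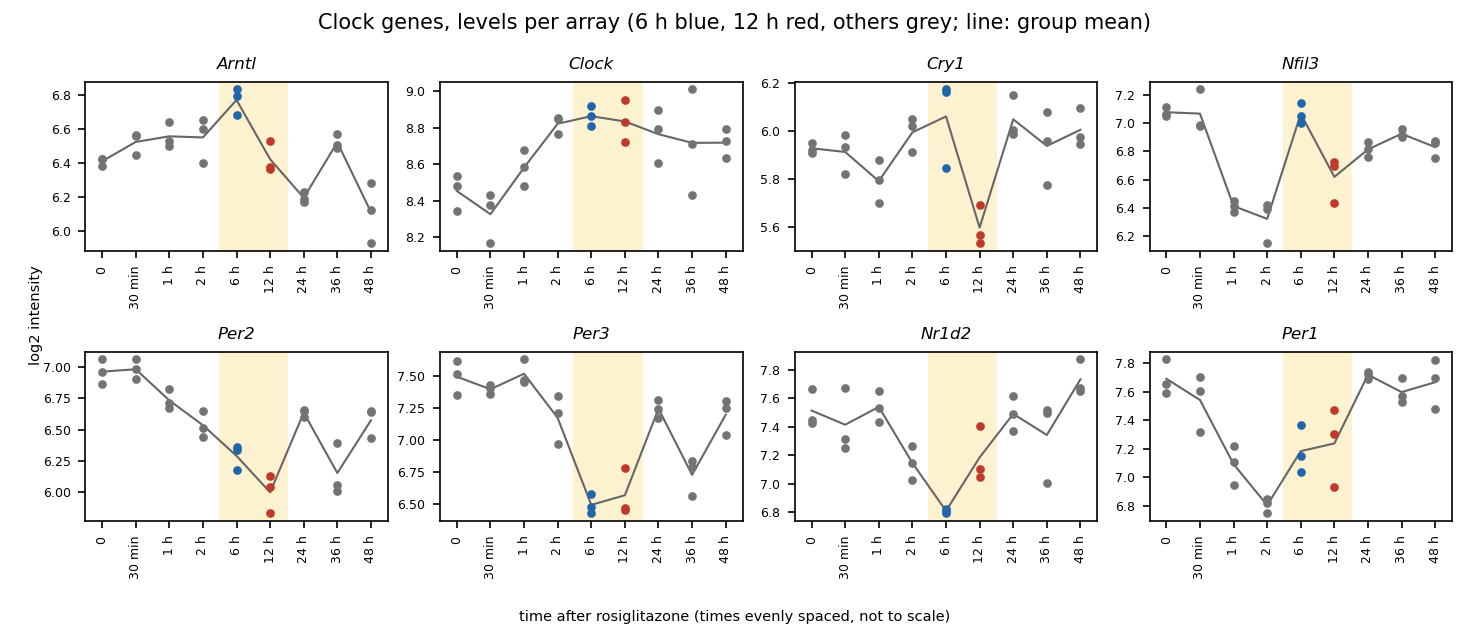
Log2 intensity per array (points) and group mean (line) of 8 clock genes, with the times evenly spaced and the 6 h to 12 h interval shaded. Cry1 has its lowest mean at 12 h, Nfil3 is high at 6 h, and the means of Per2 and Per3 are lower at 12 h and 36 h than at 24 h and 48 h. The means of Arntl and Nfil3 are higher at 36 h than at 24 h and 48 h.

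The promoters of Cry1 and Nfil3 are shown because, of the 3 clock genes that fell, they hold an element through which clock factors are known to act. The same window of Arntl held no match to the searched E-box, D-box or ROR and REV-ERB element and is not shown. The sequences are the 250 bases before the gene start from RefSeq (GRCm38.p6), in lower case, with the motif found on either strand in capitals. Cry1 holds the E-box CACGTG 60 bases before its start, in chr10:85185055-85185304, minus strand. Nfil3 holds the element TAGGTCA of ROR and REV-ERB receptors on the opposite strand, 12 bases before its start, in chr13:52981040-52981289, minus strand.
Cry1: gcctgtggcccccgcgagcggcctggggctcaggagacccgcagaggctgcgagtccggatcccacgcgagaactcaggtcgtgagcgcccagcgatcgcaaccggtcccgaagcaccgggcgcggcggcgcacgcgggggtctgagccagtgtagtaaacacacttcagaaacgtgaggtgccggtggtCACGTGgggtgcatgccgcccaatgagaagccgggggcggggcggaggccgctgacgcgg
Nfil3: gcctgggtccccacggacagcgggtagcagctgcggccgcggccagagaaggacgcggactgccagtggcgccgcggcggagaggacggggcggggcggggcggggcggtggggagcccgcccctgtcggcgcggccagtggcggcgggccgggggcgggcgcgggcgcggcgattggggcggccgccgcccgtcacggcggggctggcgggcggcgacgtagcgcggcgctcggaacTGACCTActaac
The E-box was found in 4 of 14 clock genes with a promoter entry and in 8.43% of the 14713 promoters searched, each reaching from 250 bases before to 50 after the start. The element TAGGTCA was in 1 of the 14 and in 2.26% of all. The same letters CACGTG are also the site of MYC factors. They occurred in 13 of 86 promoters of genes that fell (15.1%), 2 of 73 promoters of genes that rose (2.74%) and 9 of 34 promoters of ribosome biogenesis genes (26.5%). For ribosome biogenesis genes called lower it was 2 of 9. The E-box was not alone in this. The TEAD element GGAATG was in 16 of the 86, 3 of the 73 and 1936 of all 14713. The ETS element CCGGAAG was in 10 of the 34 and 1851 of all, but in 8 of the 86. The CCAAT box was in 11 of the 14 clock promoters and 5639 of all, and in 32 of the 86. These shares are descriptions of letters, out of 20 motifs searched, and no binding was measured.

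A pair of further genes that fell is shown with the same E-box close to the start. They were chosen after their values were seen. Cers6, a ceramide synthase, was 8.51, 8.41 and 8.44 at 6 h and 8.07, 7.88 and 8.01 at 12 h (-0.47 ± 0.075, limma adjusted p = 0.00218), and kept its call without any single array. Atic, which completes purine ring synthesis, was 8.93, 8.98 and 8.81 at 6 h and 8.61, 8.62 and 8.54 at 12 h (-0.32 ± 0.065, limma adjusted p = 0.0144). The Atic call was lost without the 6 h replicate 1 (0.0772) or 2 (0.0908) or the 12 h replicate 3 (0.076). The E-box lies 22 bases before the start of Cers6, in chr2:68861191-68861440, plus strand, and 7 bases before that of Atic, in chr1:71556906-71557155, plus strand.
Cers6: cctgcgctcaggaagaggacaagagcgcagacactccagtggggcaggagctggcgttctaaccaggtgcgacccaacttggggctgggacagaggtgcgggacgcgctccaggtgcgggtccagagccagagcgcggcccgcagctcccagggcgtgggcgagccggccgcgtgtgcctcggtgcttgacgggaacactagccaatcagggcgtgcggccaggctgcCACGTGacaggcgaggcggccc
Atic: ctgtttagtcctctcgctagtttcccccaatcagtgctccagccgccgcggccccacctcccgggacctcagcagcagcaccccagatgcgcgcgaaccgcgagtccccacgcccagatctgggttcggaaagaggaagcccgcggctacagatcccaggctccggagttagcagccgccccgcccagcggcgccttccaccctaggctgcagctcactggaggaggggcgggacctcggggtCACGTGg

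A small set of genes stood above or below their neighbours in time at 12 h. This was tested by setting 12 h against the mean of 6 h and 24 h, a contrast that shares the 6 arrays and adds the 24 h arrays. A gene that stays level to 12 h and then falls or rises to 24 h can also pass, so this is not a test of a peak. It called 19 genes (0.101%), 14 higher (0.0745%) and 5 lower (0.0266%), but limma called 0 without the 12 h replicate 2 (1173 genes at an unadjusted p below 0.05). The count was 10, 11 and 8 without 6 h replicates 1, 2 and 3, 7 without the 12 h replicate 1, and 8 and 9 without 24 h replicates 1 and 2. In the models without replicate 1 or 2 of every group it was also 0, with 1918 and 1068 genes at an unadjusted p below 0.05. Several of the genes that stood higher serve DNA replication and its control. Exo1, a nuclease of DNA repair, was 3.51, 3.39 and 3.56 at 6 h and 3.95, 3.77 and 3.77 at 12 h. It stood 0.47 ± 0.071 above the mean of its neighbours in time (limma adjusted p = 0.00436). E2f8, a repressor of cell cycle genes, was 3.49, 3.55 and 3.60 at 6 h and 4.35, 4.21 and 3.74 at 12 h, 0.58 ± 0.113 above its neighbours (limma adjusted p = 0.0403). The 12 h replicate 3 of E2f8 lay nearest to the 6 h arrays. Mcm10 (0.40 ± 0.073, limma adjusted p = 0.0229), Pole2 (0.37 ± 0.074, limma adjusted p = 0.0449) and the mitotic kinase Mastl (0.41 ± 0.083, limma adjusted p = 0.0449) also stood above their neighbours.

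All 5 of these genes also rose from 6 h to 12 h itself, and lost that call without 1 or more arrays. Exo1 lost it without any 1 of the 6 (adjusted p from 0.0501 to 0.173). E2f8 and Mcm10 kept it only without the 12 h replicate 3, with adjusted p without the others from 0.0649 to 0.149 and from 0.089 to 0.213. Pole2 kept it likewise, with 0.051 to 0.0964 otherwise, and Mastl lost it without the 6 h replicate 1 (0.102) or the 12 h replicates 1 (0.0857) or 2 (0.0748). The helicase subunit Mcm5 (0.63 ± 0.093, limma adjusted p = 0.00435) and the methylation maintenance factor Uhrf1 (0.52 ± 0.096, limma adjusted p = 0.0229) also stood above their neighbours. Their changes from 6 h to 12 h, 0.33 each, did not pass (adjusted p = 0.138 and 0.162). From 12 h to 24 h, when 1.66% of all genes were called lower, both were called lower (-0.92 and -0.72). Their 12 h means, 6.34 and 4.61, lay below those at 30 min, 6.36 and 4.84. Of 23 DNA replication genes as a list, 1 rose from 6 h to 12 h (Mcm10), 21 lay above 0 and the median was 0.14. With the replicate block, quantile normalization, trended variance or array weights, 0 genes of the list were called from 6 h to 12 h. From 2 h to 24 h, 11 of the 23 fell and 1 rose, beside 10.6% and 9.68% of all genes. That interval uses none of the 6 h and 12 h arrays, but it shares the 24 h arrays with the contrast of 12 h against its neighbours. Of 20 mitosis genes limma called 0 and 3 had an unadjusted p below 0.05, beside 2370 of all 18781 genes. On that list 14 lay above 0, with a median of 0.16.

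**Figure D5:**
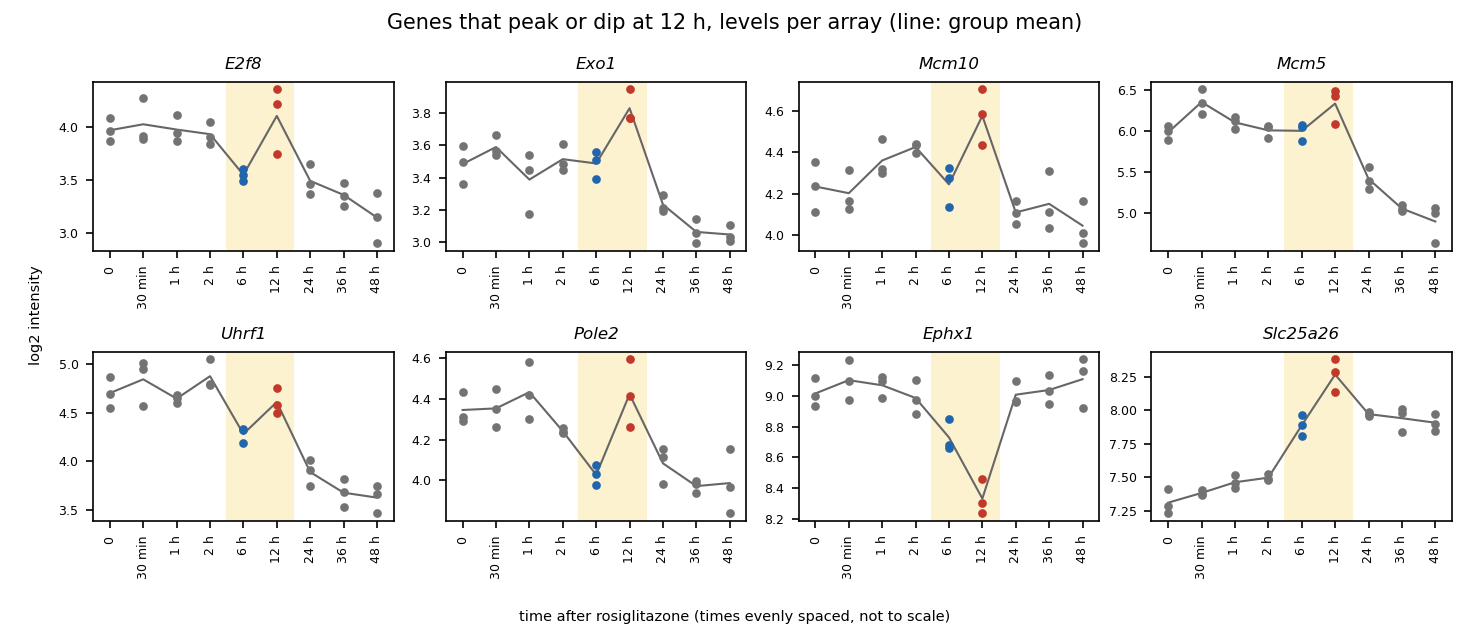
Log2 intensity per array (points) and group mean (line) of 8 genes that stood above or below the mean of 6 h and 24 h at 12 h, with the times evenly spaced and the 6 h to 12 h interval shaded. E2f8 and Exo1 lie near the low end of the intensity scale. At 6 h and 12 h the means of Mcm10 and Uhrf1 lie below the median gene (4.76). Ephx1 is the one shown that dips.

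Genes with other roles also stood apart from their neighbours at 12 h. Slc25a26, the mitochondrial carrier of S-adenosylmethionine, rose from 7.81, 7.89 and 7.97 to 8.13, 8.38 and 8.28 (0.38 ± 0.066, limma adjusted p = 0.00514). It stood 0.34 ± 0.058 above its neighbours (limma adjusted p = 0.013). Abcg2, a drug and urate exporter, and Oscp1 also stood above their neighbours, by 0.32 each (limma adjusted p = 0.0456 and 0.0441). Ephx1, the microsomal epoxide hydrolase, dipped from 8.85, 8.66 and 8.68 to 8.30, 8.24 and 8.46 and returned to a mean of 9.01 at 24 h. Its distance to its neighbours was -0.54 ± 0.076 (limma adjusted p = 0.00435), and its fall from 6 h of 0.40 ± 0.088 (limma adjusted p = 0.0223) was lost without 6 h replicates 1 (0.135) or 2 (0.0602) or 12 h replicates 1 (0.0679) or 2 (0.106). Cry1 and Per2 also lay below their neighbours, both by 0.46 (limma adjusted p = 0.00851 and 0.0154).

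Lipid handling in the adipocyte is controlled by PPARγ. Of 39 lipid-handling targets of PPARγ limma called 0, with 8 at an unadjusted p below 0.05, and the median change was -0.03, with 18 above 0. Without the 6 h replicate 3, 1 of them was called higher. With genes above the median mean alone, 1 of the 35 left was called lower. Limma also called 0 of 29 adipocyte transcription factors (3 at an unadjusted p below 0.05), 0 of 16 adipokines (2) and 0 of 14 lipolysis genes (3). It called 0 of 34 oxidative phosphorylation genes (7 at an unadjusted p below 0.05, all higher) and 0 of 18 genes of the tricarboxylic acid cycle (5, all higher). Of all 18781 genes, 2370 had an unadjusted p below 0.05. Angptl4, an inhibitor of lipoprotein lipase and a direct target, was 10.45, 10.31 and 10.45 at 6 h and 10.39, 10.42 and 10.27 at 12 h, after 9.37 on average in untreated cells. Pdk4, the kinase that shuts pyruvate dehydrogenase, was 8.22, 8.24 and 8.33 at 6 h and 8.53, 8.36 and 8.40 at 12 h (0.17 ± 0.11, limma adjusted p = 0.574). Pparg itself was 11.14, 11.22 and 11.27 at 6 h and 11.23, 11.18 and 11.20 at 12 h. Fabp4, the fatty acid carrier, had a change of -0.08 ± 0.06, and Cd36, the fatty acid transporter, one of 0.17 ± 0.08.

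Neighbouring metabolic lists gave few calls as well, where 0.564% of all genes rose and 0.607% fell. Of 19 mitochondrial fatty acid oxidation genes limma called 0 and 5 had an unadjusted p below 0.05, while 18 lay above 0 with a median of 0.12, and 14 were called higher from 2 h to 24 h, beside 9.68% of all genes. Of 18 cholesterol synthesis and uptake genes all lay above 0 and 1 rose, Sqle, the squalene epoxidase (0.26 ± 0.066, limma adjusted p = 0.0489), which kept its call only without the 12 h replicate 2. Without 6 h replicates 1, 2 and 3 its adjusted p was 0.191, 0.0966 and 0.1, and without 12 h replicates 1 and 3 it was 0.186 and 0.16. Beside untreated cells, 11 of the 18 cholesterol genes were called lower and 2 higher at 6 h (8.18% and 8.39% of all genes), with a median of -0.26. At 12 h, 4 were called lower and 2 higher (9.38% and 9.48% of all genes), with a median of -0.17. Of 21 lipogenesis genes 1 fell: Thrsp, the lipogenic regulator Spot14, went from 9.71, 9.94 and 9.74 to 9.10, 9.41 and 9.43 (-0.48 ± 0.094, limma adjusted p = 0.00836), lost without the 6 h replicate 2 (0.0766) or the 12 h replicate 1 (0.0555). Of 12 reference genes 1 rose: Hprt, a purine salvage enzyme often used to normalise, went from a group mean of 8.76 at 6 h to one of 9.13 at 12 h (0.38 ± 0.077, limma adjusted p = 0.0134), a call lost without 6 h replicates 1 (0.108) or 2 (0.0787) or 12 h replicates 1 (0.0539) or 2 (0.073).

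Matrix and inflammatory genes gave values of small size. Of 39 extracellular matrix genes limma called 0, 8 had an unadjusted p below 0.05 and 30 lay below 0, with a median of -0.08. The collagen enhancer Pcolce2 fell by 0.57 ± 0.122 (limma adjusted p = 0.018) as the single call among 16 collagen-processing genes, and lost it without 6 h replicates 1 (0.0733) or 2 (0.12) or 12 h replicates 1 (0.0978) or 3 (0.0502). The membrane protease Mmp14, from 9.02, 9.05 and 9.03 to 8.79, 8.80 and 8.80, fell by 0.24 ± 0.060 (limma adjusted p = 0.0499) and lost the call without any one of the 6 arrays (0.103 to 0.161). Limma called 0 of 35 chemokine, cytokine and adhesion genes (5 at an unadjusted p below 0.05) and 0 of 30 interferon-response genes (4). An unadjusted p below 0.05 was found for 2370 of all 18781 genes. The Wnt receptor Fzd4 fell by 0.32 ± 0.072 (limma adjusted p = 0.0224) as the single call among 27 Wnt pathway genes, and kept the call only without the 12 h replicate 1. Without 6 h replicates 1, 2 and 3 its adjusted p was 0.0733, 0.106 and 0.0578, and without 12 h replicates 2 and 3 it was 0.0948 and 0.0932.

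The called genes were followed into arrays that the comparison does not use. From 2 h to 24 h, 73 of the 106 genes that rose were called higher and 3 lower, with a median change of 0.40. Of the 114 that fell, 92 were called lower and 2 higher, with a median of -0.63. Over all genes 20.3% were called in that interval, 9.68% higher and 10.6% lower, with a median of 0.00287. Acta2 (-2.52), Orm2 (-2.44) and Phkg1 (-2.07) fell furthest among the leading genes from 2 h to 24 h, and Adm (2.47), Elovl3 (2.01) and Depp1 (1.97), a regulator of autophagy, rose furthest. From 24 h to 36 h, 2 of the 106 were called higher and 1 lower, and of the 114, 1 was higher and 0 lower, beside 0.0532% and 0.101% of all genes.

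Beside untreated cells, a control set that is not independent of the comparison because it shares its arrays, the genes that rose had 64 members higher and 6 lower at 12 h (9.48% and 9.38% of all genes). At 6 h they had 19 higher and 23 lower (8.39% and 8.18% of all genes). The genes that fell had 3 higher and 71 lower at 12 h, and 29 and 27 at 6 h. Ndrg1 lay at 8.60 in untreated cells, 7.79 at 6 h and 8.62 at 12 h, so that its 12 h mean was close to the untreated mean, and Hsph1, at 7.51, 8.14 and 7.71, moved toward its untreated mean. Elovl3, at 5.29, 6.16 and 7.17, and Cyp2f2, at 9.19, 8.35 and 7.46, moved further from theirs.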

How the data were processed

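Total RNA was hybridised to 27 arrays of the Affymetrix type Mouse Gene 1.1 ST. The submitters' processing notes name Partek and RMA, with no version or role. For each probe set the authors deposited a log2 intensity, between 1.67 and 13.19. Of 28815 probe sets, 21153 carried 1 gene symbol, 1867 several and 5795 none, and those with several or none were left out. The set with the highest mean stood for each of 1367 genes with several, which left 18781 genes, without a filter on dim genes. Gene identifiers of 21123 probe sets matched RefSeq (GRCm38.p6). The array annotation can be old.

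The lmFit and eBayes functions of limma 3.58.1 (R 4.3.3) fitted the 9 group means to all 27 arrays with 18 residual degrees of freedom. P-values were two-sided and adjusted by Benjamini and Hochberg, and genes were called at 0.05. The script was tested on simulated data. Untreated arrays served as the control. The 46 process and 6 marker lists, of which 110 entries were not analysed here, and the comparison itself were chosen with earlier results of these data known. Named were at each end of the ranking by change up to 15 called genes with separated groups, up to 4 members per list with the smallest p, up to 8 in each direction that were also called at 12 h against the mean of 6 h and 24 h, and a set panel. Symbols of predicted genes, RIKEN clones and small RNAs were counted but not named. Motifs were searched on both strands of RefSeq promoters, 1 per gene. Alternatives were the replicate block, a filter on dim genes, probe set means, other scalings and variance models, a minimum change of 1.2-fold, the 6 arrays alone, and models without a replicate or array.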

Additional observations from a re-analysis of the deposited data

How the results depend on the processing

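The count of called genes from 6 h to 12 h depended on the model, with 3 arrays per group. With the replicate number as a block it was 116 (45 higher, 71 lower), with genes above the median mean alone 382 (188 and 194), with a minimum change of 1.2-fold 1 (0 and 1), and with only the 6 arrays 56 (18 and 38). Centring arrays on their median gave 61 higher genes, while a further quantile normalization gave 40.5% of 220 calls higher and shared 191 of them. Models without 1 replicate of every group or without 1 of the 6 arrays gave 11 to 162 calls, 2 to 83 higher and 9 to 97 lower, and models added after the results were seen, without 1 array at 2 h, 24 h or 36 h, gave 182 to 288, with up to 143 higher and 145 lower. Trended variance, array weights and probe set means kept the count within 1.5 times of 220, and 1 called gene changed sign, under probe set means. Arrays with the same replicate number did not deviate together (correlations of -0.151, -0.112 and -0.263 between 6 h and 12 h). With 3 arrays per group at these times alone, this cannot settle whether the numbers pair the samples. The cause of the lower count with the block was not tested.

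The other intervals were also refitted with further models added after the results were seen (single arrays, variance models, probe set means and a minimum change). From 2 h to 24 h the count was 3814, 738 with the minimum change of 1.2-fold and 2160 to 4084 without a replicate or array. From 24 h to 36 h it was 29, 14 with the block, 2 with the minimum change, 1365 with array weights and 0 to 32 without a replicate or array. At 12 h against the mean of 6 h and 24 h it was 19, 8 with the block, 0 with the minimum change and 0 to 28 without a replicate or array. Of 4362 values of single named genes under the alternatives, 3765 kept their direction and their side of the threshold, 482 lost the call in the same direction, 58 gained one, and 57 changed sign in genes called under neither model. Precision is limited by the number of arrays.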
